A study of Glycine max with 30 samples.

Results

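The positions of 2 histone marks were compared within soybean embryos (Glycine max, cultivar Williams 82) at mid-maturation, using the H3K4me3 peak list and the H3K27me3 island list of that stage. The lists hold 47697 of the 231124 H3K4me3 peaks and 15672 of the 87531 H3K27me3 islands of the series, with islands kept at a false discovery rate of 0.05. Each peak was placed in 1 of 3 classes by its position alone. A border peak lay within 500 bp of an island end, an inside peak lay wholly on an island and farther than that from both ends, and the remaining peaks were outside. An island had a peak when at least 1 bp of a peak lay on it.

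The series comprises 30 chromatin immunoprecipitation sequencing (ChIP-seq) libraries from embryos at the cotyledon, early, mid- and late maturation stages and from 8-day seedlings. At mid-maturation there were 6 libraries, 2 biological replicates each for H3K4me3, H3K27me3 and total H3, the last serving as control. Per the labels, these embryos came from seeds of 200 to 250 mg, and no genetic change or treatment is named. The tissue was fixed in 1% formaldehyde for 10 minutes under vacuum, and its chromatin was sheared to 100 to 500 bp. Antibody amounts were 1 µg against H3K4me3, 10 µg against H3K27me3 and 3 µg against H3. Libraries were amplified over 15 PCR cycles. Cotyledon-stage seeds measured 2.5 to 3.5 mm, early maturation seeds 6 to 7 mm, and late maturation seeds weighed 230 to 500 mg. Late maturation embryos were fixed for 15 minutes by another procedure.

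H3K4me3 is trimethylation of lysine 4 of histone H3 and is found at the starts of expressed genes in plants as in animals. H3K27me3, trimethylation of lysine 27, is laid down by Polycomb complexes and in plants covers repressed genes, many of them developmental regulators that are active in other tissues or stages. Where both marks are found at 1 place, they can lie on the same chromatin or on chromatin of different cells. Whole embryos were used, so these cannot be told apart here, nor can fewer marked cells and less mark per cell.

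Both replicates were pooled in each list, so the data hold no replicate spread and none of the differences below was tested. Intervals in brackets are 95% intervals (Wilson for shares, order statistics for medians, exact Poisson for densities, exact binomial for the read ratios of named islands). They cover counting error only, and neighbouring regions are not independent. The depth of single libraries is unknown here. The islands of the stage held 9978699 ChIP and 3887154 control reads, with a median of 346 and 180 per island, and no island had fewer than 44 ChIP or 10 control reads.

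Most H3K4me3 peaks of the mid-maturation embryo lay away from H3K27me3. Of the 47697 peaks, 38340 or 80.4% (80.0 to 80.7) were outside islands. Islands covered 83.95 Mb, however, against 863 Mb between them. Per Mb, peak midpoints were denser in islands (101) than off them (45.0). Inside islands lay 5729 peaks or 12.0% (11.7 to 12.3), and 3628 or 7.61% (7.37 to 7.85) lay at borders. Inside peaks were thus more numerous than border peaks under the 500 bp limit. That order depended on the limit. With 1000 bp there were 4741 inside and 5608 border peaks, and among peaks with a score at or above the list median there were 243 inside and 986 border peaks, so border peaks were then the more numerous. When a peak was placed by its midpoint, the border class shrank to 1903.

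The division was of similar size at each stage. Inside shares were 12.5% in cotyledon-stage, 10.6% in early and 10.99% in late maturation embryos, and 12.1% in seedlings. Border shares were 9.66%, 7.15%, 7.45% and 10.5% in the same order. Mid-maturation stood within the range of the other 4 stages in both classes, and these lists come from other libraries with other island numbers.

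Counted in bases, the overlap was smaller than counted in peaks. The peaks covered 46533195 bases in total, of which 5988217 or 12.9% lay on islands. The same bases made up 7.13% of the 83950200 bases under islands. H3K27me3 domains of this stage were thus marked by H3K4me3 over a small part of their length. Islands spanned 83.95 Mb and the sequence between them 863 Mb, so peak bases were denser on islands than off them. The small part therefore does not mean that islands had less sequence under peaks than the space between them. Bases under a peak do not count its score, and the exact share off the islands was not computed.

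Inside peaks were narrow. Their median width was 542 bp (528 to 554), against 806 bp (789 to 823) at borders and 1019 bp (1015 to 1023) outside. Widths below 500 bp were found in 45.2% of inside peaks, 24.5% of border peaks and 14.0% of outside peaks. At the other end, 10.5% of inside and 29.9% of outside peaks reached 1200 bp. The widest inside peak spanned 3148 bp and the widest outside peak 6134 bp. Strong inside peaks were not narrow. The 243 with a score at or above the list median had a median width of 1298 bp. Widths of outside peaks at like score were not computed.

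A narrow island cannot hold a wide peak 500 bp from both ends, so the class itself limits width there. The inside peaks of wide islands were narrow as well. Their median width was 560 bp (534 to 577) in islands of 8000 to 16000 bp and 530.5 bp (503 to 565) in islands over 16000 bp. Ranges of width include their upper and not their lower limit. In islands of 2000 bp or less, where the limit acts, the 51 inside peaks had a median of 270.0 bp.

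Inside peaks also had low scores. The score is the authors' own value per peak, its meaning is not given in the sources used here, and it was used only within a list. The median was 13.1 (12.5 to 13.7) inside, 41.6 (38.7 to 44.5) at borders and 128 (126 to 129) outside. The median over the whole list was 99.3, and 4.24% of inside peaks, 27.2% of border peaks and 59.0% of outside peaks reached it. The upper quartile of the list, 173, was reached by 23 inside peaks of 5729, by 309 border peaks and by 11593 outside peaks.

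Read the other way, strong H3K4me3 peaks were nearly all outside H3K27me3. Peaks were ranked by score and divided into 10 deciles. Inside islands lay 33.1% (31.8 to 34.5) of the lowest decile, 17.9% of the fourth and 2.89% of the sixth. In the highest decile, with scores from 211 to 335, 2 of 4769 peaks or 0.0419% (0.0115 to 0.153) were inside. The border share took another course. It was 8.78% in the lowest decile, highest in the fourth at 12.9% and 2.20% in the highest.

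**Figure D1:**
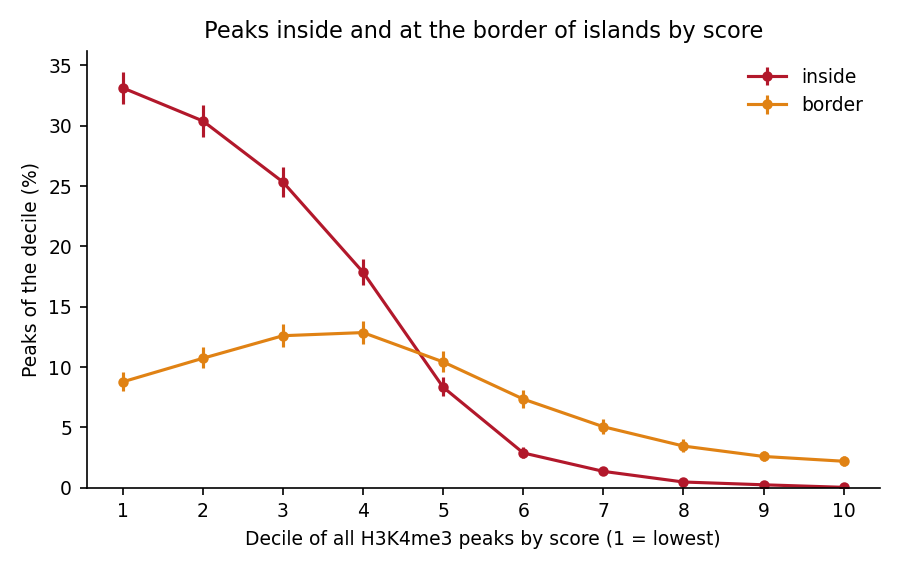
Share of H3K4me3 peaks inside (red) and at the border of (orange) H3K27me3 islands, in percent, for each decile of the 47697 mid-maturation peaks ordered by score; bars are 95% Wilson intervals. The inside share falls from 33.1% to 0.0419%, and the border share is highest, at 12.9%, in the fourth decile.

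Width and score rise together in any peak list, so scores were compared at like width. Among peaks of 300 bp or less, inside and outside peaks had like scores, with medians of 5.90 (5.64 to 6.00) and 5.93 (5.93 to 6.13), and border peaks had 6.44 (6.03 to 6.52). The classes parted as peaks grew wider. At 500 to 800 bp the medians were 17.9 inside and 34.6 outside. At 800 to 1200 bp they were 31.9 (30.1 to 34.2) inside, 84.4 (78.4 to 92.0) at borders and 148 (146 to 149) outside. Over 1200 bp they were 59.2, 112 and 179. Border peaks lay between the other classes in each width range above 500 bp.

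**Figure D2:**
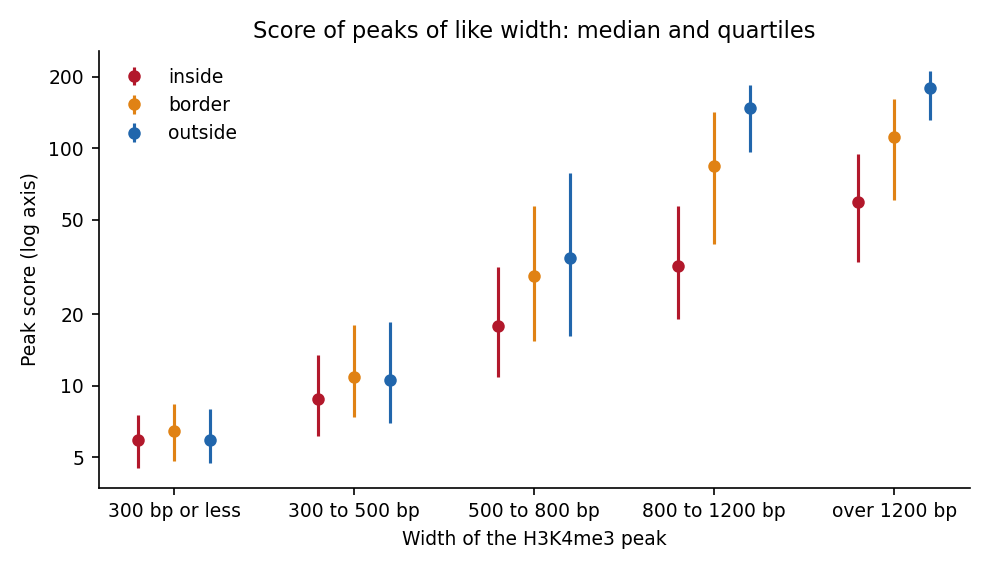
Score of mid-maturation H3K4me3 peaks (log axis) in 5 ranges of peak width, for inside (red), border (orange) and outside (blue) peaks; points are medians and bars run from the lower to the upper quartile. In peaks of 300 bp or less the medians are 5.90 inside, 6.44 at borders and 5.93 outside, and over 1200 bp they are 59.2, 112 and 179.

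The border class held peaks of unlike kinds. Of its 3628 peaks, 1617 or 44.6% lay wholly on an island, 1374 or 37.9% reached over an island end and 637 or 17.6% lay off the island. Their median scores were 18.7 (17.4 to 20.4), 74.2 (68.4 to 79.1) and 125 (112 to 131). Peaks just within an island end thus had scores near those of inside peaks, and peaks just beyond it had scores near those of outside peaks. Median widths were 610 bp (587 to 634) wholly on, 981 bp (943 to 1019) over an end and 974 bp (937 to 1007) off the island. A peak over an end had a median of 82.4% of its length on the island. Only 3 border peaks touched more than 1 island.

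The strongest border peaks were of the latter kinds. Choosing by the highest score, the peak at chr13:36775831-36777140 had a score of 291 and reached onto an island with 170 of its 1310 bases. That island, chr13:36769001-36776000, held 1162 ChIP and 272 control reads, a ratio of 4.27 (3.74 to 4.89). A score of 284 belonged to chr13:35677729-35679094, which reached with 94 bases onto an island of 11200 bp with a ratio of 4.03 (3.62 to 4.48). The third, chr17:6674319-6675196, scored 281 and stopped 118 bp short of an island. The first 2 places thus had a strong H3K4me3 peak at the end of an H3K27me3 island, and read counts of the island beside the third were not taken. Each of the 3 also carried an H3K4me3 peak at the other 4 stages, with scores of 131 to 331 in those lists.

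Around island ends the density of H3K4me3 peaks changed over a short distance. Peak midpoints were counted in steps of 500 bp from the nearest island end. In the first 500 bp off an island there were 18.5 midpoints per Mb (16.4 to 20.8), and in the next 500 bp 48.8 (45.2 to 52.6). From 1000 bp to 10000 bp the values lay between 63.7 and 81.3 per Mb. The other side of the end was dense from the first step. There were 104 midpoints per Mb (99.3 to 109.6) in the first 500 bp within islands, and between 87.0 and 122 per Mb in the steps as far as 5000 bp in.

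**Figure D3:**
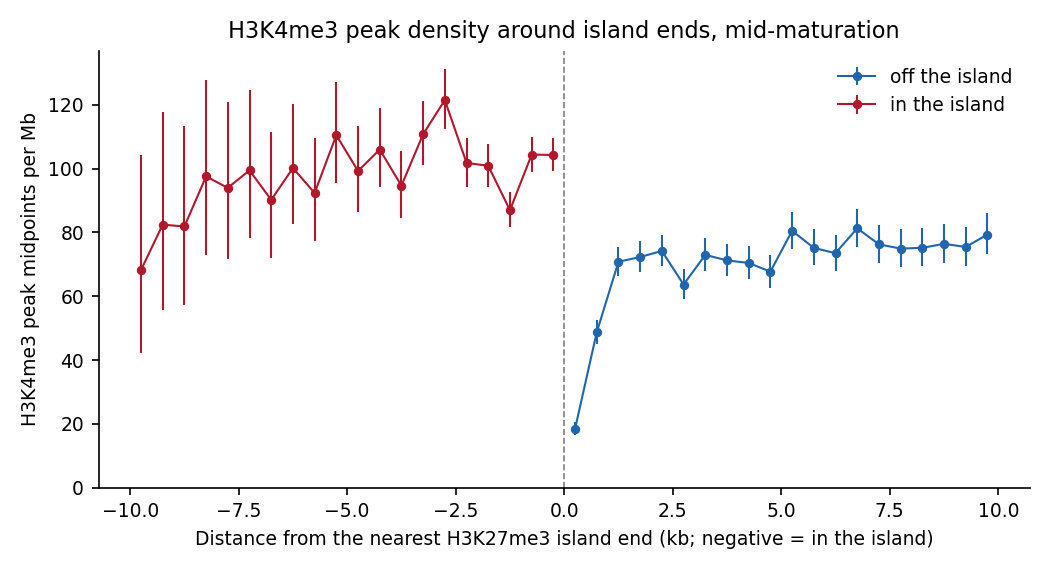
H3K4me3 peak midpoints per Mb against distance from the nearest H3K27me3 island end in kb at mid-maturation, in steps of 500 bp, within islands (red, negative distances) and off them (blue); bars are exact 95% Poisson intervals. The lowest point, 18.5 per Mb, is the first 500 bp off the island, and intervals widen deep inside islands where few bases remain.

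Scores differed between the steps as well. The 286 peaks with a midpoint in the first 500 bp off an island had a median score of 21.9, against 92.9 in the next step and 107 from 1000 to 1500 bp. Within islands the median was 27.6 in the first 500 bp and 14.5 at 1000 to 1500 bp. The zone just off the island therefore held few midpoints. A wide peak that starts just beyond an end has its midpoint in a later step, and the 637 border peaks lying wholly off islands, described above, had a median score of 125. The first step was also low at the other stages, with 30.1 midpoints per Mb in cotyledon-stage embryos, 36.9 and 20.3 in early and late maturation embryos and 16.1 in seedlings.

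Over whole islands there were 101 midpoints per Mb (99.0 to 103) at mid-maturation, against 45.0 (44.6 to 45.5) off them. The space off the islands is all sequence between neighbouring islands, with or without genes. Sequence and peaks beyond the first and the last island of each chromosome were left out. In islands of the other stages there were 70.9 (cotyledon), 73.5 (early maturation), 71.1 (late maturation) and 137 (seedling) per Mb. In islands the median score was 16.9 and off them 128, so the higher density was one of weak peaks.

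Within islands, midpoints lay less often in the outer parts. With each island divided into 5 equal parts, the shares were 15.5%, 22.3%, 24.3%, 22.1% and 15.8% of 8494 midpoints from the lower to the upper coordinate. Both ends were alike, with the strand of genes not considered. In islands over 8000 bp the outermost parts had 14.5% and 15.2%, so the pattern was not limited to small islands. The density by distance from an end does not show it, and the first steps there also hold all bases of the narrow islands, in which peaks were densest.

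Gaps between neighbouring islands held few H3K4me3 peak midpoints when short. Of 1409 gaps of up to 1000 bp, 10 or 0.710% (0.386 to 1.30) held a peak midpoint. The share was 2.56% for gaps of 1000 to 2000 bp, 16.4% for 3000 to 5000 bp, 39.4% for 5000 to 10000 bp and 67.7% for 10000 to 20000 bp. Density per base rose as well, from 8.10 midpoints per Mb in the shortest gaps to 77.6 in gaps of 10000 to 20000 bp. All bases of a gap of up to 1000 bp lie within 500 bp of an island end, where midpoints were few. A peak that reaches into a short gap with its midpoint on an island was not counted. The cause of the rise was not tested.

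Peaks that did not touch an island lay at a median distance of 15700 bp (15438 to 15942) from the nearest one, with quartiles of 6293 and 34900 bp. Within 1000 bp lay 4.19% of these 38898 peaks, within 10000 bp 36.7%, and within 100000 bp 94.1%. Their strength varied little with distance once past the nearest few kb. The median score of outside peaks was 114 (106 to 124) at 500 to 1000 bp from an island, 102 (92.3 to 111) at 1000 to 2000 bp and 117 (112 to 122) at 2000 to 5000 bp. It was 134 (130.3 to 137) at 10000 to 20000 bp and 126 (122 to 129) beyond 50000 bp.

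From the side of H3K27me3, 6414 of 15672 islands, or 40.9% (40.2 to 41.7), had at least 1 H3K4me3 peak. They held 53.4% of all island bases. At the other stages the share of islands with a peak was 30.5% (cotyledon), 37.7% (early maturation), 33.1% (late maturation) and 42.2% (seedling). Among these islands 4142 or 64.6% had at least 1 inside peak and 2272 had border peaks only. A further 320 islands had no peak on them but a peak within 500 bp of an end.

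Islands with a peak were wider. Their median width was 5400 bp (5200 to 5600) with quartiles of 3000 and 9200 bp. Islands without one had a median of 3200 bp and quartiles of 2000 and 5200 bp. The ratio of medians was 1.69, and it was above 1 on each of the 20 chromosomes, from 1.41 on chromosome 1 to 2.00 on chromosome 9. A wider island has more room for a peak. The share with a peak rose from 26.99% (25.5 to 28.5) in islands of 2000 bp or less to 78.7% (75.1 to 81.8) in islands over 16000 bp, while the number of peaks per Mb of island fell from 202 to 78.6.

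H3K27me3 read coverage was compared as ChIP reads over control reads in each island, which is the deposited fold divided by a constant of 1.48. The median ratio was 2.45 (2.42 to 2.48) in islands with a peak and 1.90 (1.88 to 1.92) in islands without. The first was 1.29 times the second, and on single chromosomes between 1.22 and 1.36 times. Summed reads gave 5942418 ChIP over 2085222 control reads in islands with a peak, a ratio of 2.85, and 4036281 over 1801932 in those without, a ratio of 2.24. The presence of H3K4me3 thus did not go with less H3K27me3 per island at this stage.

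Much of that difference followed island width. Within width ranges the median ratio with a peak was 0.984 times that without in islands of 2000 bp or less, 1.08 times at 2000 to 4000 bp and 1.19 times at 4000 to 8000 bp. It was 1.09 times at 8000 to 16000 bp and 1.02 times above. In the middle range the medians were 2.52 (2.47 to 2.58) and 2.12 (2.08 to 2.17), and in the narrowest and widest ranges the intervals of both kinds overlapped. ChIP and control reads per kb were both higher with a peak in all 5 ranges. In islands of 2000 bp or less the medians were 93.8 against 83.75 ChIP and 56.6 against 47.9 control reads per kb. At 4000 to 8000 bp they were 115 against 92 and 46.4 against 43.9. At late maturation, in contrast, the median ratios with a peak were 0.854 to 0.960 times those without in all 5 ranges. Over all islands the value was 1.02 times. ChIP reads per kb were nonetheless higher with a peak there in all 5 ranges, and control reads per kb were higher as well. At 4000 to 8000 bp the late maturation medians were 75.8 against 66.7 ChIP and 62.3 against 51.7 control reads per kb. That stage was fixed by another procedure, and the difference between stages was not tested.

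**Figure D4:**
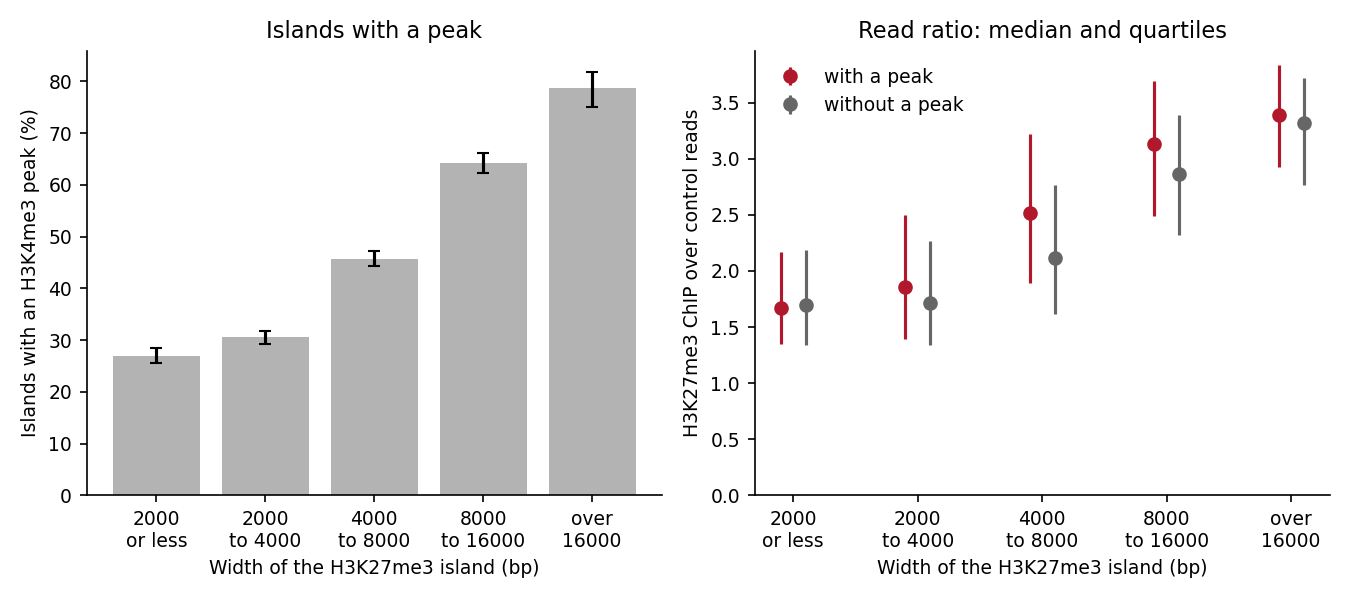
Mid-maturation H3K27me3 islands in 5 ranges of width: left, percent with an H3K4me3 peak (bars from 0, with 95% Wilson intervals); right, median H3K27me3 ChIP over control reads with quartiles for islands with (red) and without (grey) a peak. The share rises from 26.99% to 78.7%, and the ratios differ most at 4000 to 8000 bp, 2.52 against 2.12.

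Islands with an inside peak and islands with border peaks only were unlike. The former had a median width of 7400 bp (7200 to 7600) and a median ratio of 2.78 (2.74 to 2.82). The latter had 2600 bp (2600 to 2800) and 1.86 (1.81 to 1.90), close to the 1.90 of islands with no peak. Both kinds of reads were more frequent in islands with border peaks only than in islands with no peak. Medians per kb were 94.9 against 85.6 for ChIP and 49.7 against 45.0 for control. The inside class requires room of 500 bp at both ends, so the difference in width is in part its construction. The ratio also rose with width in islands with no peak, from 1.70 at 2000 bp or less to 3.32 over 16000 bp. Islands with an inside peak and with border peaks only were not compared at like width. Peaks covered a median of 11.4% of an island with an inside peak and 27.1% of an island with border peaks only.

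The number of peaks per island was 0.557 on average, with 1 peak on 4725 islands, 2 on 1256, 3 on 311, 4 on 85 and 5 or more on 37. Width rose with the number of peaks, from a median of 4600 bp with 1 to 21600 bp with 5 or more. ChIP reads per kb had medians of 85.6 (85.0 to 86.5) with no peak, 108 (106.5 to 109) with 1, 129.8 with 2, 147 with 3 and 160.2 (140.4 to 176) with 5 or more. Median control reads per kb stayed between 45.0 and 47.0 over these groups, which differ in width. At like width they were higher with a peak, as given above. In islands of 8000 to 16000 bp the ratio of ChIP to control was 2.86 (2.76 to 2.93) with no peak, 3.05 with 1, 3.22 with 2 and 3.29 (3.10 to 3.44) with 3 or more, so some of the rise remained at like width.

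The strength of the peak did not order the islands in the same way. Islands with a peak were divided into 4 groups of like number by their highest peak score. The median ratio was 2.34 in the lowest group, 2.555 in the second, 2.63 in the third and 2.31 in the highest, where scores ran from 60.5 to 291. Islands with the strongest peaks were also narrower, with a median of 4600 bp against 5400 to 5800 bp. When weak peaks were left out and an island had a peak only if the score reached the list median of 99.3, 851 islands remained. Islands with weaker peaks only then counted among those without a peak, so the group compared against changed as well. The ratio of widths fell from 1.69 to 1.11 and that of coverage from 1.29 to 1.03.

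The islands with the most peaks were long domains with weak peaks. At chr18:58516601-58609000 an island of 92400 bp, the widest of the stage, held 10 peaks, all of them inside, with scores of 3.31 to 16.3. These covered 2.89% of its length, and its 12701 ChIP reads over 4494 control reads gave a ratio of 2.83 (2.73 to 2.92). The island was present at each of the other 4 stages and met an H3K4me3 peak there at early maturation and in seedlings. An island at chr9:2191601-2236800 held 9 peaks with scores up to 30.5, covering 12.8% of its length. Of the islands with 7 peaks, the 3 widest were chosen. They lay at chr14:4064401-4123400, chr13:37423001-37452400 and chr18:1715401-1744200, with ratios of 4.25, 3.24 and 4.90. Their strongest peaks scored 46.1, 119 and 28.4. These 4 islands met a peak at all other stages.

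Long domains without H3K4me3 existed too. The widest island with no peak, chr2:14208801-14255200, spanned 46400 bp with 6056 ChIP and 2272 control reads, a ratio of 2.67 (2.54 to 2.80). It was an island at all 5 stages and met no H3K4me3 peak at any. At chr13:35864201-35899000 an island of 34800 bp had a ratio of 4.36 (4.13 to 4.60), with no peak at mid-maturation but one at the cotyledon stage and in seedlings. Islands at chr8:15249801-15283200 and chr19:1306801-1338200, of 33400 and 31400 bp, met a peak in seedlings and at no other stage. The fifth, chr8:13076201-13107000, met none.

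The islands of highest coverage were chosen among those with and those without a peak. Among islands with at least 50 control reads, the highest with a peak was chr13:33044001-33050800, with 1398 ChIP over 205 control reads or 6.82 (5.89 to 7.94). Its single peak had a score of 7.92. The highest without a peak was chr11:4277601-4280800, with 627 over 91 reads or 6.89 (5.52 to 8.68). These intervals overlap. Next among islands with a peak came chr1:51963201-51970200 at 6.13 with a peak score of 41.3, and chr14:41446801-41465800 at 6.03 with 4 peaks of up to 67.5. Next without a peak came chr3:8938201-8941000 at 5.90 and chr13:27126001-27128000 at 5.67.

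A few inside peaks were strong. The highest score, 249, belonged to chr15:607865-610347, a peak of 2483 bp in an island of 15400 bp with 2376 ChIP and 687 control reads, a ratio of 3.46 (3.18 to 3.77). At the same place the peak score was 16.0 in cotyledon-stage and 18.9 in early maturation embryos, then 217 in late maturation embryos and 31.4 in seedlings, and an island was present at each stage. The list medians were 89.9, 137, 64.7 and 60.6 for those stages in that order, so the place was below the median of its list in 3 of them and above it in mid- and late maturation. H3K4me3 was thus high there, relative to its own list, at the 2 later embryo stages, in a place that met an H3K27me3 island at each stage.

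The next inside peaks differed in how much H3K27me3 surrounded them. The peak chr1:41494994-41496855 scored 220.5, in an island with a ratio of 2.35 (2.03 to 2.72). At late maturation the place lay on no island and its peak scored 205. The peak chr9:39446918-39448106 scored 209 in an island with a ratio of 1.69 (1.40 to 2.05). The peak chr6:49106840-49108223 scored 208 in an island of 3400 bp with 178 ChIP and 155 control reads, a ratio of 1.15 (0.921 to 1.43). That island had the lowest ratio of the 5, and the place lay on no island at early or late maturation or in seedlings. Ratios are of raw reads and the deposited fold is 1.48 times the ratio, so a ratio of 1 is not a fold of 1. Each of these islands met the FDR of 0.05. The fifth, chr12:11887649-11889494, scored 204 in an island with a ratio of 1.95 (1.72 to 2.22).

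The 3 widest inside peaks were of middle strength. The peak chr7:676822-679969 covered 3148 bp with a score of 85.9, and chr17:9238409-9241480 covered 3072 bp with a score of 111. The peak chr4:49051905-49054959 covered 3055 of the 5400 bp of its island and scored 109. At that last place the scores at the cotyledon stage and early maturation were 45.1 and 84.8, and no peak was listed at late maturation or in seedlings, while the island was present at all stages.

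Places of inside peaks nearly all lay on an island at the other stages, and fewer of them on an H3K4me3 peak. The share of inside peaks on an island of another stage was 99.3% (cotyledon), 97.7% (early maturation), 98.9% (late maturation) and 97.3% (seedling). They lay on an H3K4me3 peak in 50.6%, 59.2%, 49.4% and 77.4%, in the same order. Outside peaks met an H3K4me3 peak in 87.8%, 92.9%, 82.4% and 91.3%. Border peaks differed from inside peaks in this. They met a peak in 83.6% and an island in 75.03% at early maturation, and in 87.2% and 73.6% in seedlings, and 62.2% met a peak and 55.7% an island at all 4 other stages. Peaks at all 4 other stages were found for 35.2% (34.0 to 36.5) of inside and 76.8% (76.3 to 77.2) of outside peaks, and at none for 14.9% (14.0 to 15.9) and 2.48% (2.33 to 2.64).

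Since weak peaks are found again less often, inside peaks were divided at their score quartiles into 4 groups and set beside outside peaks in the same score range. In the lowest group, with scores up to 7.11, 14.6% of inside and 35.0% of outside peaks met a peak at the cotyledon stage, and 18.1% and 48.6% at early maturation. In seedlings the shares of that group were 51.6% (49.0 to 54.1) and 54.8% (52.9 to 56.7). In the 2 middle groups inside peaks met a seedling peak more often than outside peaks, in 72.1% against 65.0% and in 89.3% against 80.1%. Toward the cotyledon stage and early maturation inside peaks were lower in all 4 groups. At late maturation they were lower in 3 groups and higher in the other, the second highest, with 63.0% against 55.2%. The highest group spans scores from 30.2 to 249, within which outside peaks score higher, so it is less evenly matched.

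**Figure D5:**
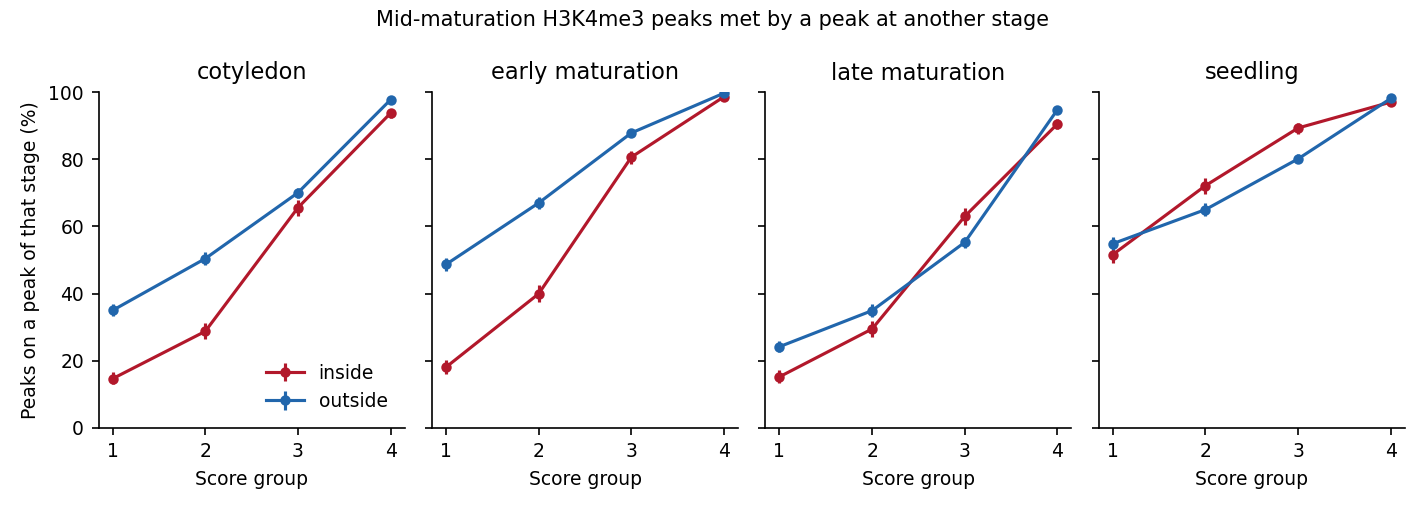
Percent of mid-maturation inside peaks (red), and of outside peaks in the same score range (blue), that overlap an H3K4me3 peak at each of the other 4 stages, by score group of the inside peaks (1 = lowest); bars are 95% Wilson intervals. Inside peaks lie below outside peaks in all 4 groups at the cotyledon stage and early maturation, and above them in both middle groups in seedlings.

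Islands followed the same course. Of the 6414 islands with a peak, 87.5% met an H3K4me3 peak in seedlings, 75.5% in early and 66.4% in late maturation embryos. Of the 9258 islands without a peak, 10.0% met one in seedlings, 2.80% in early and 4.04% in late maturation embryos, and 85.3% met none at any of the other 4 stages. The seedling list is also the longest, with 52891 peaks. An island was present at all 4 other stages for 86.7% of islands with a peak and 70.2% of those without. In seedlings alone these shares were 94.0% and 82.0%, and among islands of 4000 to 8000 bp they were 97.3% and 95.1%. The shares over all 4 stages were not divided by width.

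The division held over the genome. Across the 20 chromosomes the inside share ran from 10.5% on chromosome 10 to 14.0% on chromosome 9, and the share of islands with a peak from 32.9% on chromosome 16 to 46.2% on chromosome 11. Inside peaks had a median width of 474.5 to 587 bp and outside peaks of 998.5 to 1050 bp, and the former were narrower on all 20 chromosomes. Median scores were 11.01 to 16.2 inside and 119 to 136 outside.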

How the data were processed

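H3K4me3, H3K27me3 and H3 ChIP-seq of mid-maturation soybean embryos was analysed from 2 deposited region lists that pool both replicates. The labels of this stage name no list, and the lists were matched by the stage code they carry. The submitters' processing notes name Bowtie 0.12.7, SAMtools 0.1.19, MACS2 and SICER 1.1. The genome build is not given in the sources used here. Each H3K4me3 peak carries a deposited score. H3K27me3 lists give counts of ChIP and control reads per island, a fold (ratio) over control and p-values with a false discovery rate (FDR), all as deposited by the authors; the island list's name gives a 200 bp window and 600 bp gap. Read counts are raw, and the fold is the ratio of counts multiplied by a constant.

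Islands were kept at an FDR of 0.05, which all mid-maturation islands met (highest 0.0494). The late maturation and seedling lists, which reach higher, were cut to it. Positions are counted from 1 as listed. Peaks were compared with islands in Python 3.11.15 (numpy 2.4.6, pandas 2.3.3, scipy 1.17.1), with code tested on simulated regions, and plotted with matplotlib 3.10.9. Peaks on sequences with no island (79) counted as outside and have no distance. Named regions were the 5 islands with most peaks, the 5 widest with none, the 5 highest-scoring and 3 widest inside peaks, the 3 highest-scoring border peaks, and the 3 islands with and without a peak of highest fold among those with 50 or more control reads. Members and rules were chosen with earlier results of these data known. Alternatives changed the border distance, the overlap, and the limits on peaks and islands. No annotation of this build was used, so no gene or sequence is named.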

Additional observations from a re-analysis of the deposited data

How the results depend on the processing

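Each of 9 results was recomputed under other settings, and 47 of 67 values stayed within 1.5 times of a count or within the 95% interval of another value. The width and coverage ratios stayed above 1 under all of them. The order of inside and border peaks turned in 2 settings, a border of 1000 bp (4741 inside, 5608 border) and peaks at or above the median score. With peaks at or above the median score, inside peaks numbered 243, border peaks 986, outside peaks 22629 and islands with a peak 851. Islands with weaker peaks only counted there as without a peak. The inside width was then 1298 bp, the width ratio 1.11, the coverage ratio 1.03, the peaks per island 0.0551 and the distance 16265 bp. With the 8162 islands of fold 3 or more, there were 1833 border peaks, 4134 islands with a peak, a coverage ratio of 1.12, 0.738 peaks per island and a distance of 29460 bp. By peak midpoint there were 1903 border peaks, an inside width of 598 bp, 0.542 peaks per island and a distance of 16053 bp. Asking for 50% of the peak on the island gave 0.542 peaks per island. The cause of these changes was not tested. Peaks of 200 bp or more, islands with an FDR of 0.001 or less, a border of 200 bp and numbered chromosomes alone moved no result to which they were applied. No paired analysis was possible because replicates were merged in every list, and leaving out a replicate was not run for the same reason. Depth limits the named islands, whose read ratios rest on as few as 70 control reads.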
